A study of Mus musculus with 2 samples.

Results

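The cells described here are the Chil3 Ly6c2 monocytes of B16F10 tumors, 542 of 12815 barcodes kept from 2 single-cell RNA libraries. A barcode was a member with at least 3 UMIs (unique molecular identifiers, each standing for 1 captured transcript) of Chil3 and at least 3 of Ly6c2. Its C1qa, C1qb and C1qc had to sum to below 0.2% of its UMIs and its S100a8 and S100a9 to below 1%. It also had to hold fewer than 5 UMIs of Arg1, at most 1 of the CD3 genes and at most 1 of Cd79a and Cd79b. The members were thus chosen by measured UMI counts of these genes, so the levels of those genes are given as a description. The control library held 160 members of 7086 kept barcodes, and the library labelled knockout held 382 of 5729.

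B16F10 is a melanoma line of C57BL/6 mice, and the tumors grew under the skin of C57BL/6 hosts for 14 days. The control hosts were Usp18f/f, with loxP-flanked (floxed) Usp18 alleles and no Cre. The other hosts were Usp18f/f LysM-Cre, in which Cre is driven from the Lyz2 locus in myeloid cells, so that neither group was wild type at Usp18. Live CD45+ cells of 4 tumors per group were pooled into 1 library per group, which leaves no replicate and no test between the groups. Each interval below is a 95% interval for counting error only and does not cover the spread between mice. The tumor cells carried no stated Usp18 change. The libraries were made with the 10x Genomics 3' chemistry, which counts the end of a transcript.

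Classical monocytes leave the bone marrow through the chemokine receptor CCR2, enter tumors and there turn into macrophages and dendritic-like cells. In the mouse they are recognised by high surface Ly6C, which Ly6c2 encodes, and Chil3 encodes a secreted chitinase-like protein made by a subset of them. Type I interferon signals through the receptor IFNAR1/IFNAR2 to the kinases JAK1 and TYK2 and to the complex ISGF3, which holds STAT2 and IRF9 and binds promoters of interferon-stimulated genes. USP18 is itself interferon-induced, removes the ubiquitin-like protein ISG15 from its targets and restrains the receptor.

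The promoters of 5 genes with large differences between the libraries and of the monocyte marker Ly6c2 are shown because interferon-stimulated genes made up 53 of the 237 genes at least 2-fold higher in the library labelled knockout. The sequences are the 250 bases before the RefSeq start site, 5′ to 3′ on the gene's strand, GRCm38.p6. Capitals mark 2 copies of GAAA with 2 bases of any kind between them, or 2 copies of TTTC for a match on the opposite strand, a core of the element that ISGF3 binds. Overlapping matches run together. Isg15 lies at chr4:156200819-156201068 on the minus strand, Ifit3 at chr19:34583279-34583528 on the plus strand, and Rsad2 at chr12:26456453-26456702 on the minus strand. Cxcl10 lies at chr5:92348890-92349139 on the minus strand, Slfn4 at chr11:83174936-83175185 on the plus strand, and the first of 2 Ly6c2 promoters at chr15:75111972-75112221 on the minus strand.
Isg15: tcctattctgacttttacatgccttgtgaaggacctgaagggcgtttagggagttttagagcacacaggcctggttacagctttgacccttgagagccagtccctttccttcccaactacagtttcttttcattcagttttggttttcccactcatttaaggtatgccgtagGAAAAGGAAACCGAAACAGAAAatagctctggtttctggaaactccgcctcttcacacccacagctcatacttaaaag
Ifit3: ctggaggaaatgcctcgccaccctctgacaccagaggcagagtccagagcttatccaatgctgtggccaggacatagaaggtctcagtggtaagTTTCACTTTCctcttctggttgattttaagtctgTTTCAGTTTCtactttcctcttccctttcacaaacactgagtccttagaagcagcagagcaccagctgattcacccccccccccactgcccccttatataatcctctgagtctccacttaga
Rsad2: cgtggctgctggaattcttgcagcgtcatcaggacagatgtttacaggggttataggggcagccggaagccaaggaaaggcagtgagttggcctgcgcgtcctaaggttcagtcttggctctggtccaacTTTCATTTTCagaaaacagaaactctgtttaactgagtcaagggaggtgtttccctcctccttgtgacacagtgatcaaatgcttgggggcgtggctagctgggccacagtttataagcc
Cxcl10: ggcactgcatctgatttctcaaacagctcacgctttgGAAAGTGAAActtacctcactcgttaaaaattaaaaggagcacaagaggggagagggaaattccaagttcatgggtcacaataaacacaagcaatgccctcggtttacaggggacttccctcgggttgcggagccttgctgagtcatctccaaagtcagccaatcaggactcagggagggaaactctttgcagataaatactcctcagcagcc
Slfn4: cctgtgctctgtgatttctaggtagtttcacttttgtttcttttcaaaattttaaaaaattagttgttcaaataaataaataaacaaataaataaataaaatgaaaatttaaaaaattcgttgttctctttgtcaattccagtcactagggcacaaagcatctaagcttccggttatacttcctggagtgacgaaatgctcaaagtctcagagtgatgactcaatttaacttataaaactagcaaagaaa
Ly6c2: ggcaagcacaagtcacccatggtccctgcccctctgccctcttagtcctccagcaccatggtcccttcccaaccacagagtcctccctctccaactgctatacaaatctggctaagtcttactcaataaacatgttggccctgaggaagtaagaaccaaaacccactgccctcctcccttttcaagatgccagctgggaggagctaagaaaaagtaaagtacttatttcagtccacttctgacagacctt
Isg15 held 3 overlapping matches that began 78 to 66 bases before the start, Ifit3 held 2, and Rsad2 and Cxcl10 held 1 each. The letters were not in the window of Slfn4, which was 10.9-fold higher, nor in either window of Ly6c2 nor in that of Chil3. Of all 32851 promoters in the RefSeq table, 978 (2.98%) held a match, and by gene 936 of 27025 (3.46%) did. A promoter was found for 55 of the 70 measured genes of the interferon-stimulated list, and 23 of these 55 (41.8%) held a match. Among them, 21 of 43 genes at least 2-fold higher in the library labelled knockout held one, against 2 of the other 12. A match describes the letters and was not tested as a binding site.

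The members carried monocyte transcripts beyond those of the rule. Against all other kept barcodes, the 15 genes that stood out most in both libraries were Chil3, Hp, C3, Cd177, Ly6c2, Ifitm6, Dmkn, Mgst1, Plac8, Vcan, Gsr, Tppp3, Klra2, Msrb1 and Sirpb1c. Hp (haptoglobin, a haemoglobin-binding plasma protein) stood at 564 CPM (UMIs of the gene per 1000000 UMIs of the members) in control members against 42.4 in the other barcodes, and at 528 against 28.2 in the library labelled knockout. C3, the central complement component, stood at 424 CPM against 34.3, and at 351 against 32.5. Plac8 stood at 3534 CPM against 541, and at 5083 against 794, and Vcan at 632 against 82.7, and at 620 against 93.6. Ccr2, which the rule did not use, was detected in 159 of 160 control members and 367 of 382 members of the library labelled knockout. Chil3 and Ly6c2 were fixed by the rule and say nothing on the name.

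Markers of some other cells were present, and a few members held many of them. The rule capped the CD3 and Cd79 genes, C1q and S100a8 and S100a9, so low levels of these restate it. Of markers it did not use, Cd8a, Ms4a1 and the mast cell and basophil markers were at 0 in both libraries. The 7 macrophage markers include the capped C1q genes. They summed to 1437 CPM in control members and 2198 CPM in members of the library labelled knockout. Apoe, which the rule did not use, gave 1194 and 1765 CPM of these. At least 5 macrophage marker UMIs were in 96 of 160 and 251 of 382 members. The 7 neutrophil markers summed to 245 and 123 CPM. They include the capped S100a8 (92.9 and 22.6 CPM) and S100a9 (29.4 and 1.71 CPM). Csf3r, which the rule did not use, stood at 96.7 and 96.8 CPM. The 5 plasmacytoid dendritic cell markers counted summed to 189 and 79.7 CPM. Bst2, also a marker of these cells, is on the interferon-stimulated list and was left out of the sum. It stood at 269 and 603 CPM. In the library labelled knockout, 1 member held 1001 of 1077 melanoma marker UMIs and 1 held 1053 of 1060 erythroid UMIs. Macrophage and neutrophil markers were not counted as another lineage here. At least 5 UMIs of the markers of another lineage were held by 9 control members and 20 of the library labelled knockout. Among the barcodes with the highest scores from the doublet caller Scrublet were 5 and 8 members. Values without the 9 and 20 members are given below beside results that they move.

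The libraries differed in depth and in the animals behind the members. They held 7754 and 6063 barcodes, with 43412346 and 48167632 UMIs, and 8 barcode sequences occurred in both, none of them a member. Control members had a median of 6039 UMIs (range 3333 to 20732) and 2204 genes, and members of the library labelled knockout a median of 5458 UMIs (1094 to 65483). Summed over members the depth was 1055049 and 2345832 UMIs. The labels give no sex, and both pools held cells with Xist, transcribed from the inactive X chromosome, and cells with Y-linked transcripts. Of the control members, 58 had Xist and no Y-linked UMI and 67 had Y-linked UMIs and no Xist. Of the members of the library labelled knockout, 283 had Xist only and 40 had Y-linked UMIs only. Because these cells come from different animals of each pool, values are also given within each kind.

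Usp18 (ENSMUSG00000030107, chromosome 6, 121245906 to 121270917, plus strand, GRCm38) was higher, not lower, in the members of the library labelled knockout. It stood at 24.6 CPM in control members (interval 16.1 to 36.1, 26 UMIs in 20 of 160 cells) and at 125 CPM (111 to 141, 294 UMIs in 123 of 382 cells) in the library labelled knockout, 5.09-fold higher (3.40 to 7.92). In members with Xist the values were 32.5 and 128 CPM. In members with Y-linked UMIs they were 13.6 and 57.3 CPM, from 6 and 13 UMIs. The intervals of the 2 libraries did not overlap within either kind. The floxed part of Usp18 is not given in the sources used here, and a count of transcript ends does not check a deletion elsewhere in the gene.

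Lyz2, which encodes lysozyme M and carries Cre in this line, was nearly absent from the members of the library labelled knockout. It stood at 16762 CPM (16516 to 17011) in control members, with at least 10 UMIs in each of the 160 cells. In the library labelled knockout it stood at 30.7 CPM (24.0 to 38.7), with 72 UMIs in 54 of 382 cells and at most 4 in a cell, 546-fold lower (433 to 698). Members with Xist gave 18148 and 31.5 CPM, and members with Y-linked UMIs 17290 and 39.7 CPM. Lyz1, a near-identical neighbour whose reads the counting could split from those of Lyz2, went from 31.3 to 359 CPM and is uncertain. Its 843 UMIs in the library labelled knockout lay in 57 cells, 21 of them with at least 10 UMIs.

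Members made up a larger share of the library labelled knockout. They were 2.26% of kept control barcodes (1.92 to 2.63) and 6.67% of those of the library labelled knockout (6.04 to 7.34), a ratio of 2.95 (2.46 to 3.54). This share rests on the limit for Ly6c2, whose level differed between the libraries. Control members held a median of 5 Ly6c2 UMIs and 16 of Chil3, and members of the library labelled knockout 11 and 12. Just outside the rule, with exactly 2 Ly6c2 UMIs, lay 43 control barcodes and 31 of the library labelled knockout, and just inside, with 3, lay 35 and 34. With exactly 2 Chil3 UMIs lay 9 and 40 barcodes, and with 3 lay 6 and 25. Hp in the barcodes with 2 Ly6c2 UMIs was 468 and 423 CPM, against 468 and 228 CPM in those with 3. Of the barcodes that met both the Chil3 and the Ly6c2 limit (201 and 565), the Arg1 limit was failed by 5 and 104 and the C1q limit by 13 and 97. The sort and the pooling can also set a share of barcodes, and their part was not tested.

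Most genes of the interferon-stimulated list were higher in the library labelled knockout. Of 8389 genes with at least 20 UMIs over both libraries, 237 (2.83%) were at least 2-fold higher in members of the library labelled knockout and 51 (0.608%) at least 2-fold lower, on the log2 of CPM plus 5, which understates the change of low genes. Of the 70 measured genes of the interferon-stimulated list, 53 were at least 2-fold higher and none lower, and all 70 lay above 0, from Irf9 at 0.11 to Rsad2 at 3.67. The list's median was 1.34, beside -0.03 over all measured genes. Its UMIs were 1.34% of all UMIs in control members (1.32 to 1.36) and 2.91% (2.89 to 2.93) in members of the other library. Nothing particular to the list is read from these counts, since it was chosen with earlier results of these data known.

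Genes of the antiviral response led the list. Rsad2, which encodes viperin, stood at 45.5 CPM (33.5 to 60.3) in control members and 639 CPM (607 to 673) in the library labelled knockout. Its transcripts were found in 17 of 160 and 145 of 382 members. Ifit3 stood at 22.7 and 287 CPM, 12.6-fold higher (8.42 to 19.9). Ifit1 stood at 49.3 and 234 CPM, Mx1, a dynamin-like antiviral GTPase, at 35.1 and 222 CPM, and Oasl1 at 7.58 and 98.0 CPM. Cmpk2, a mitochondrial nucleotide kinase gene next to Rsad2, stood at 12.3 and 109 CPM. In each of these genes the intervals of the libraries did not overlap. Pydc3, of the family of HIN-200 and pyrin-only proteins, was not seen among the control members. It stood at 49.4 CPM in the library labelled knockout, and the interval of the ratio began at 13.9-fold higher.

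The named genes of the HIN-200 and Schlafen families were all higher. Ifi205 stood at 9.48 CPM (4.55 to 17.4) in control members, and at 142 CPM (127 to 158) in the library labelled knockout. Ifi213 stood at 27.5 and 159 CPM, and Ifi204 at 462 and 910 CPM, just under 2-fold on the scale used. Slfn4, a Schlafen gene of myeloid cells, stood at 33.2 and 362 CPM, 10.9-fold higher (7.79 to 15.8). Slfn1 stood at 202 and 454 CPM and Slfn5 at 233 and 473 CPM. These genes have near-identical relatives between which the counting could split reads, so single values in the 2 families are uncertain.

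Genes of the ISG15 pathway were mostly higher. Isg15 stood at 85.3 CPM (68.6 to 105) and 768 CPM (733 to 804), and was found in 39 of 160 and 263 of 382 members. Uba7, its activating enzyme, stood at 26.5 and 41.3 CPM, a ratio of 1.56 (1.01 to 2.47). Ube2l6, its conjugating enzyme, stood at 25.6 and 73.3 CPM, and the ligase Herc6 at 38.9 and 84.8 CPM. With Usp18, 4 of the 5 genes were at least 2-fold higher, where 2.83% of all genes were, and Uba7 was not.

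The receptor and its signalling chain differed less than the targets. Ifnar1 stood at 127 and 120 CPM, with a ratio of 0.943 (0.765 to 1.17), and Ifnar2 at 93.8 and 104 CPM, with a ratio of 1.11 (0.878 to 1.42). Both intervals include 1. Jak1 stood at 235 and 207 CPM and Tyk2 at 50.2 and 35.0 CPM. Of ISGF3, Stat2 stood at 44.5 and 128 CPM (2.87-fold, 2.11 to 3.99) and Irf9 at 77.7 and 84.0 CPM (1.08-fold, 0.831 to 1.42). Irf7, which amplifies interferon production, stood at 127 and 595 CPM, 4.68-fold higher (3.92 to 5.63). Socs1, an inhibitor of the receptor kinases, stood at 15.2 and 57.5 CPM. In all, 3 of 14 measured genes of the list were at least 2-fold higher (Usp18, Socs1 and Stat2), where 2.83% of all genes were. The list's median was 0.13. The gamma receptor chain Ifngr1 stood lower, at 339 and 245 CPM.

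**Figure D1:**
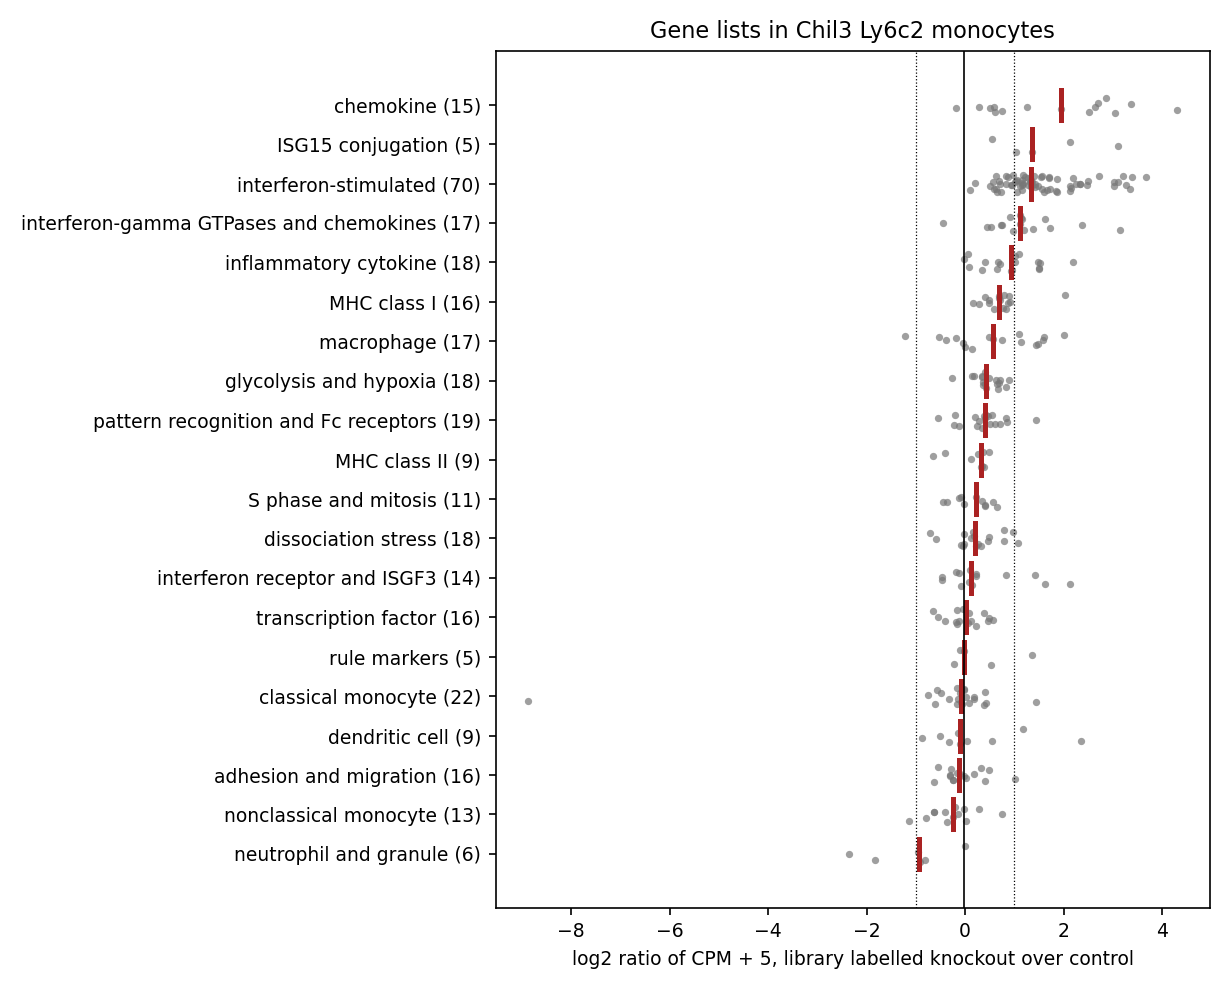
Log2 ratio of CPM plus 5 between the libraries in the monocytes, 1 point per measured gene of each list (number in brackets), with the list's median as a red bar, the median of all measured genes as a solid line and 2-fold as dotted lines. The 70 interferon-stimulated genes all lie above 0 with a median of 1.34, and the lone point near -9 is Lyz2.

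The summed interferon-stimulated transcripts were higher in most members, while the genes that differed most lay in fewer of them. Each member was thinned to 2000 UMIs, which left out 8 shallower members of the library labelled knockout. Control members then held a median of 24 list UMIs (10th to 90th percentile 12 to 44.1) and members of the library labelled knockout a median of 51 (25 to 118). B cells, thinned alike, held medians of 13 and 14. Only 262 of 1355 control B cells and 149 of 428 of the library labelled knockout were deep enough to be thinned. Of these, 22.9% and 14.1% held at least 10 UMIs of the classical monocyte list. All 160 control members and all 374 members of the library labelled knockout had at least 3 list UMIs, so that measure did not separate the libraries. At least 20 list UMIs were found in 66.9% of the control members and 95.5% of those of the library labelled knockout. The sum is carried by abundant genes such as Ifitm3, which restricts virus entry and was found in 99.4% and 99.7% of thinned members. Rsad2 was found in 6.25% and 24.3%, and Ifit3 in 2.50% and 20.6%. In the library labelled knockout, the highest 10% of thinned members held 88.3% of the Rsad2 UMIs, 74.5% of the Ifit3 UMIs, 58.9% of the Isg15 UMIs and 42.6% of the Irf7 UMIs, against 21.7% of the Ifitm3 UMIs.

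The difference was present within cells of each kind of animal. With Xist, the median per cell was 29.5 list UMIs in 58 control members and 49 in 278 members of the library labelled knockout. With Y-linked transcripts it was 19 in 67 members and 51.5 in 40. The list's share of UMIs was 1.56% and 2.96% with Xist, and 1.19% and 2.47% with Y-linked transcripts, so both kinds of control member lay below both kinds of the library labelled knockout. At least 2-fold higher were 38 of the 70 list genes with Xist, where 5.4% of all measured genes were, and 43 of 70 with Y-linked transcripts, where 4.45% were. No list gene was at least 2-fold lower within either kind, where 2.13% and 11.1% of all measured genes were. Some genes differed far more within one kind than the other. Rsad2 stood at 35.2 and 733 CPM with Xist and at 47.7 and 141 CPM with Y-linked transcripts. Ifit1 stood at 75.8 and 257 CPM with Xist, but at 45.4 and 48.5 CPM with Y-linked transcripts, where the intervals overlapped.

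**Figure D2:**
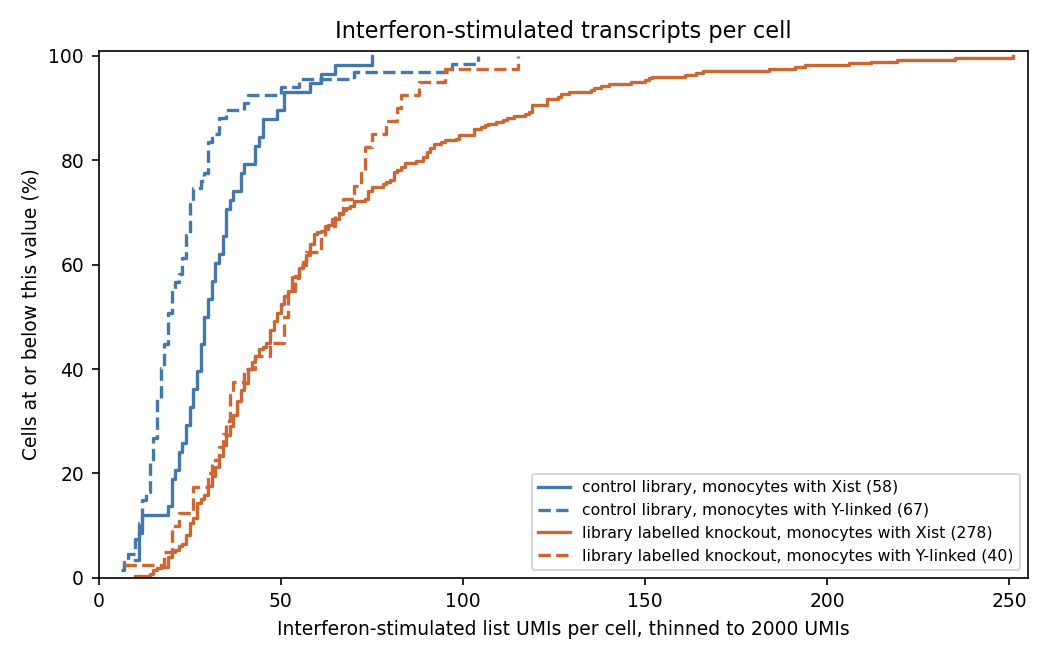
Cumulative share of monocytes (vertical axis, percent) by UMIs of the interferon-stimulated list after thinning to 2000 UMIs per cell (horizontal axis), for cells with Xist (solid) or Y-linked UMIs (dashed) of each library. The curves of the library labelled knockout lie to the right, with medians of 49 and 51.5 against 29.5 and 19 in the control.

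**Figure D3:**
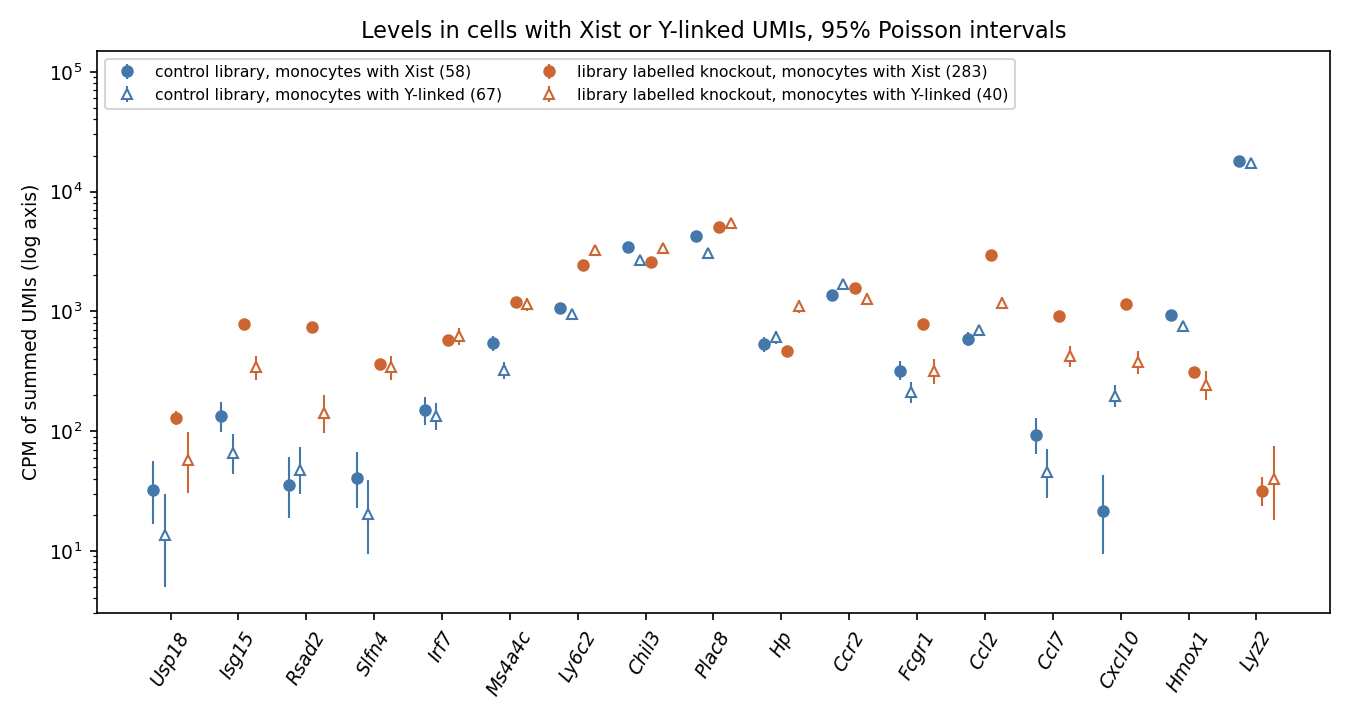
CPM of summed UMIs (log axis) of 17 genes in monocytes with Xist (filled circles) or Y-linked UMIs (open triangles) of the control library (blue) and the library labelled knockout (orange), with 95% Poisson intervals. Isg15, Slfn4, Irf7, Ly6c2 and Ccl7 are higher and Hmox1 and Lyz2 lower in the library labelled knockout within both kinds. Chil3 and Ccr2 each differ in opposite directions in the 2 kinds. Hp is higher in that library with Y-linked UMIs, while with Xist its intervals overlap.

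Ly6c2 was the rule marker that differed most. It stood at 972 CPM (913 to 1033) in control members and 2515 CPM (2451 to 2580) in the library labelled knockout, although the rule asked for the same minimum in both. It stood at 1064 and 2421 CPM with Xist and at 947 and 3269 CPM with Y-linked transcripts. Plac8 stood at 3534 and 5083 CPM. Chil3 stood at 2957 and 2541 CPM, lower with Xist (3465 and 2581 CPM) and higher with Y-linked transcripts (2685 and 3405 CPM). Hp stood at 564 and 528 CPM. With Xist it stood at 533 and 467 CPM, where the intervals overlapped, and with Y-linked transcripts it was higher (609 and 1103 CPM). Vcan, the matrix proteoglycan versican, stood at 632 and 620 CPM. Because the rule used Chil3 and Ly6c2, their levels are a description.

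Most other classical monocyte genes stood at like levels. Of the 22 measured genes of the list, only Fcgr1 was at least 2-fold higher and only Lyz2 at least 2-fold lower. Over all measured genes 2.83% were higher and 0.608% lower by as much. Without Lyz2 the list held 1.81% and 1.83% of UMIs. Ccr2 stood at 1503 CPM (1430 to 1579) and 1485 CPM (1436 to 1535), a ratio of 0.988 (0.930 to 1.05). It was higher with Xist (1362 and 1572 CPM) and lower with Y-linked transcripts (1692 and 1275 CPM). Emilin2, F10 (coagulation factor X) and Ifitm6 had ratios whose intervals include 1. Fcgr1, the high-affinity IgG receptor CD64, stood at 260 and 716 CPM, 2.76-fold higher (2.43 to 3.14). It was higher with Xist (319 and 787 CPM) and with Y-linked transcripts (211 and 318 CPM), though with Y-linked transcripts the intervals overlapped. Fn1, which encodes fibronectin, stood lower, at 1871 and 1111 CPM. The glutathione reductase gene Gsr stood at 682 and 461 CPM, and Mgst1, a microsomal glutathione transferase, at 389 and 274 CPM.

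Most adhesion and migration genes differed by less than 2-fold, as did 8101 of all 8389 measured genes. The median of the 16 measured genes was -0.13. Cx3cr1, the fractalkine receptor of nonclassical monocytes, stood at 215 and 137 CPM, and the integrin gene Itga4 at 377 and 258 CPM. With Xist, Cx3cr1 was lower in the library labelled knockout and the intervals did not overlap. With Y-linked transcripts Cx3cr1 stood at 173 and 176 CPM, where the intervals overlapped. Of 19 measured pattern recognition and Fc receptor genes, 15 lay above 0 and Fcgr1 alone passed 2-fold. Of all 8389 genes, 3925 lay above 0 and 2.83% were at least 2-fold higher. Fcgr4 stood at 71.1 and 131 CPM, Fcgr2b at 228 and 351 CPM, and Tlr7, a sensor of single-stranded RNA, at 64.5 and 79.3 CPM with an interval of the ratio that includes 1.

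All 16 measured genes of antigen presentation by MHC class I lay above 0, as did 3925 of all 8389 measured genes, but H2-Q7 alone passed 2-fold (2.83% of all genes did). The median was 0.70. H2-K1, a classical class I heavy chain, stood at 841 CPM (786 to 898) and 1569 CPM (1519 to 1621), and B2m, its light chain, at 1966 and 2973 CPM. H2-D1 stood at 1550 and 2495 CPM, Tap1, a part of the peptide transporter, at 134 and 221 CPM, and the immunoproteasome gene Psmb9 at 133 and 229 CPM. Class I genes are near-identical to one another, so a share of each value may belong to a relative. With Xist all 16 lay above 0, and with Y-linked transcripts 14 did.

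MHC class II did not show one direction. Cd74, the invariant chain, stood at 1631 and 2053 CPM and H2-Aa at 584 and 757 CPM. None of 9 measured genes passed 2-fold (median 0.33), and few of all 8389 genes did (2.83% higher and 0.608% lower). With Xist the median was 0.54, with Y-linked transcripts it was -0.34, and without members that held another lineage's markers it was 0.15. Class II transcripts sat in a minority of members. After thinning, 53 of 160 control members and 111 of 374 members of the library labelled knockout held no class II UMI, and 12.5% and 17.6% held at least 10. B cells, which carry class II, held medians of 35 and 41 such UMIs.

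Chemokines were the list with the highest median, and single cells held much of it. Of 15 measured genes 9 were at least 2-fold higher, where 2.83% of all genes were, and the median of 1.94 was 0.78 without the members that held another lineage's markers and 0.43 with Y-linked transcripts. Ccl2, the main ligand of CCR2, stood at 642 CPM (594 to 692) and 2478 CPM (2415 to 2543), and was found in 87 of 160 and 281 of 382 members. Ccl7, another CCR2 ligand, stood at 73.0 and 800 CPM, 10.96-fold higher (8.73 to 14.0), in 15 of 160 and 122 of 382 members. Both were higher with Xist (585 and 2933 CPM for Ccl2) and with Y-linked transcripts (693 and 1178 CPM). The highest 10% of the thinned members of the library labelled knockout held 86.2% of the Ccl7 UMIs and 52.4% of the Ccl2 UMIs. In B cells of that library, 8.05% held a Ccl7 UMI and 12.8% a Ccl2 UMI at 2000 UMIs, against 21.9% and 61.8% of the members.

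Some chemokine values of the library labelled knockout rest on few cells. The highest cell held 71.0% of the Ccl24 UMIs, 73.6% of the Ccl8 UMIs and 73.8% of the Ccl22 UMIs, and 42.1% of the Pf4 UMIs. These genes and Ccl12 are among the 9 counted and enter the median. Ccl12, a CCR2 ligand with a highest cell of 28.3%, stood at 11.4 and 320 CPM, and at 9.52 and 230 CPM without the highest cell of each library. Ccl12 stood at 10.8 and 374 CPM with Xist and at 13.6 and 17.6 CPM with Y-linked transcripts. Ccl9 (685 and 1026 CPM) and Ccl6 (1059 and 1499 CPM), ligands of CCR1, differed by less than 2-fold.

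Genes tied to interferon gamma were mixed. Of 17 measured GTPase and chemokine genes 10 were at least 2-fold higher (median 1.12), where 2.83% of all genes were. With Y-linked transcripts 1 of 17 was, where 4.45% of all genes were, and the median was 0.47. Cxcl10, a ligand of CXCR3 that both interferon types induce, stood at 102 and 950 CPM, and in 7 of 160 and 109 of 382 members. With Xist it stood at 21.7 and 1142 CPM, and with Y-linked transcripts at 198 and 375 CPM. A single control member, 1 of those with Y-linked transcripts, held 84 of the 108 control Cxcl10 UMIs. Without the highest cell of each library Cxcl10 stood at 22.9 and 889 CPM, and with Y-linked transcripts at 6.91 and 127 CPM. Cxcl9, a CXCR3 ligand that depends on interferon gamma, stood at 140 CPM (119 to 165) and 101.5 CPM (89.0 to 115). A single control member held 88 of the 148 control Cxcl9 UMIs, and without the highest cell of each library Cxcl9 stood at 57.2 and 79.2 CPM, the other direction. Igtp stood at 29.4 and 84.8 CPM, Irgm1 at 60.7 and 137 CPM, and Gbp2 at 201 and 274 CPM, though its log2 ratio was -0.57 with Y-linked transcripts. Cd274, which encodes PD-L1, stood at 36.0 and 75.03 CPM, just under 2-fold on the scale used.

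Of 18 measured inflammatory cytokine genes 8 were at least 2-fold higher, where 2.83% of all genes were, and 17 lay above 0, where 3925 of 8389 did (median 0.94). Il1b stood at 354 CPM (319 to 392) and 717 CPM (684 to 753), and was higher with Xist (374 and 746 CPM) and with Y-linked transcripts (334 and 944 CPM). Acod1, which makes itaconate, stood at 6.63 and 48.2 CPM, and Casp4, the sensor of intracellular lipopolysaccharide, at 58.8 and 131 CPM. Il18 stood at 48.3 and 103 CPM. The inflammasome gene Nlrp3 stood at 80.6 and 84.4 CPM and Tnfaip3, an inhibitor of NF-kB signalling, at 43.6 and 43.1 CPM, and both intervals of the ratio include 1.

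Genes that monocytes acquire or lose on the way to macrophages differed in both directions. The rule held C1q and Arg1 low in both libraries, so their levels are not read. Apoe, a lipid carrier of macrophages, stood at 1194 and 1765 CPM and Maf, a macrophage transcription factor, at 299.5 and 506 CPM. With Y-linked transcripts the log2 ratio of Maf was -0.37. Mrc1, the mannose receptor, stood at 32.2 and 98.9 CPM in all members, and its log2 ratio was 0.10 with Y-linked transcripts. Adgre1, which encodes F4/80, stood at 123 and 119 CPM, with a ratio of 0.969 (0.784 to 1.20). Hmox1, heme oxygenase, was lower, at 685 CPM (636 to 737) and 293 CPM (272 to 316). A few control members carried much of it: the highest 10% of thinned control members held 84.6% of the Hmox1 UMIs, and a UMI was found in 50.6% and 44.2% of members. Without the highest cell of each library it stood at 566 and 257 CPM. By Chil3 range, as set out below, it stood at 415 and 317 CPM in the lowest, 1485 and 389 CPM in the middle and 190 and 147 CPM in the highest. Hmox1 was lower with Xist (928 and 309 CPM) and with Y-linked transcripts (750 and 243 CPM), but with a limit of 10 UMIs for Chil3 and Ly6c2, which left 13 control members, its log2 ratio was 0.48. Of 13 measured nonclassical monocyte genes 10 lay below 0, where 4464 of all 8389 genes did. Ear2 alone was at least 2-fold lower (90.04 and 37.9 CPM), where 0.608% of all genes were. With Y-linked transcripts the direction turned: 11 of 13 lay above 0, 4 were at least 2-fold higher, where 4.45% of all genes were, and the median was 0.69.

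Beyond the lists, the genes with the lowest ratios and at least 100 UMIs included Pdcd4, Runx2, Bcl11a, Shtn1, Mga, Oaz2, Ibtk, Mtus1, Phf8, Sik1 and Rftn1. Their differences were small beside those of the higher genes. Pdcd4, a translation inhibitor, stood at 54.0 and 18.8 CPM, 2.88-fold lower (1.91 to 4.37). Runx2 and Bcl11a, transcription factors that plasmacytoid dendritic cells also express, stood at 67.3 and 25.6 CPM and at 62.6 and 26.9 CPM. The 5 plasmacytoid markers counted, of which Runx2 is 1, were lower in sum. Bst2, which was left out of that sum, was higher (269 and 603 CPM). Without the members that held another lineage's markers, Runx2 stood at 38.9 and 21.1 CPM and Bcl11a at 31.5 and 19.6 CPM. The log2 ratios were -0.75 and -0.57, so that neither was 2-fold lower. Runx2 is among the markers by which those members were left out, so its value is not independent of that choice. With Xist the log2 ratio of Bcl11a was 0.31. Beyond the lists, the highest genes included Mt2, a metallothionein, with 3 UMIs in control members and 119 in the library labelled knockout (17.8-fold, 5.96 to 87.7). With Y-linked transcripts it had 1 and 0 UMIs, too few to give a direction. Phf11a had 3 and 109 UMIs (16.3-fold, 5.45 to 80.5).

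The members were not uniform within a library. The genes most variable from cell to cell (variance over mean at 2000 UMIs, the lower of both libraries) were Fth1, Cxcl10, Spp1, Cd74, Thbs1, Hspa1b, Cxcl9, Hmox1, Fabp5, H2-Ab1, Cxcl2, Il1b, H2-Aa, H2-Eb1 and Ccl4. Fth1, the ferritin heavy chain, had a variance over mean of 24.4 in control members and 34.3 in the library labelled knockout. Cxcl10 had 26.5 and 19.8. The median over genes with a mean of at least 0.1 was 1.05 and 1.08. Iron handling (Fth1, Hmox1), antigen presentation (Cd74, H2-Ab1, H2-Aa, H2-Eb1) and chemokines (Cxcl10, Cxcl9, Cxcl2, Ccl4) thus account for 10 of the 15.

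Levels followed the amount of Chil3 in a cell, taken in 3 ranges of Chil3 UMIs per 10000. Below 10 lay 36 control members and 74 of the library labelled knockout, from 10 to below 30 lay 54 and 163, and at 30 or more lay 70 and 145. Hp was higher in each higher range, from 343 over 536 to 745 CPM in the control and from 262 over 457 to 835 CPM in the library labelled knockout. Class II UMIs were lower in each higher range, from 0.865% over 0.222% to 0.167% and from 0.979% over 0.441% to 0.127%. Ccl7 also was lower with more Chil3, from 175 over 59.5 to 12.2 CPM in the control and from 1223 over 855 to 388 CPM in the library labelled knockout. The ranges are a description, since Chil3 chose the cells.

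The interferon-stimulated list was higher in the library labelled knockout in every range. It held 1.24%, 1.43% and 1.34% of UMIs in the control and 2.39%, 3.06% and 3.12% in the library labelled knockout. Its median log2 ratio was 1.33, 1.26 and 1.51. The chemokine median was 1.62, 1.69 and 0.72.

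**Figure D4:**
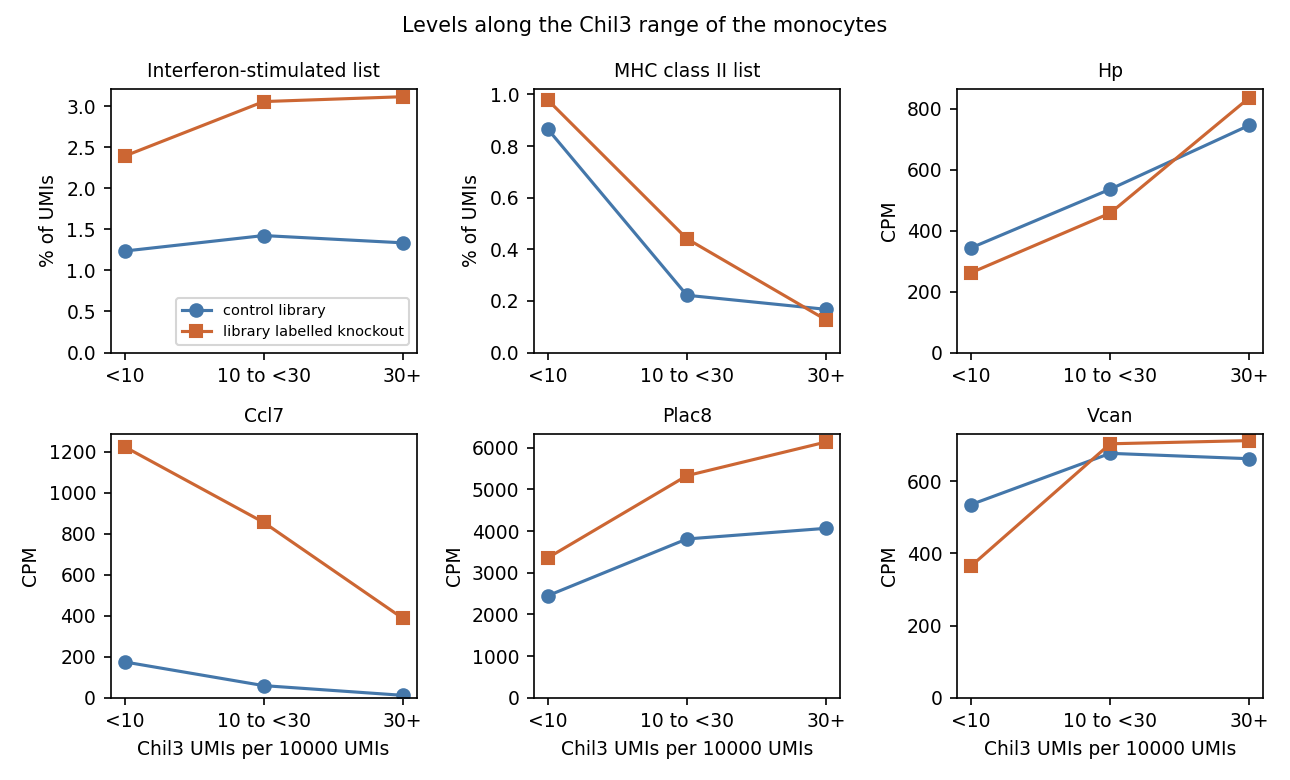
Share of UMIs (percent) of 2 gene lists and CPM of 4 genes in monocytes of 3 Chil3 ranges (Chil3 UMIs per 10000 UMIs, horizontal axis) in the control library (circles) and the library labelled knockout (squares), without error bars. Hp and Plac8 are higher and class II and Ccl7 lower with more Chil3 in both libraries, while the interferon-stimulated list is higher in the library labelled knockout throughout.

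Members with more interferon-stimulated transcripts also held more Ly6c2 and Plac8, neither of which is on the list. In the control, the 76 members above the list's median held a mean of 2.46 Ly6c2 UMIs at 2000 UMIs and the other 84 held 1.58. In the library labelled knockout the means were 7.68 in 183 members and 3.59 in the other 191. Plac8 gave 9.88 and 5.02 in the control and 14.9 and 7.68 in the library labelled knockout. Chil3 gave 6.47 and 6.65 in the control and 6.22 and 5.19 in the library labelled knockout. Cxcl10 UMIs were found only above the median in the control (0.553 and 0 per cell), and gave 3.80 and 0.152 in the library labelled knockout. The mean of Ccl2 was lower above the median in both libraries (1.12 and 1.46, then 4.63 and 5.18). In the library labelled knockout Ccl2 was found in 61.7% and 61.8% of these members. Ccl7 and Ccl12 were lower above the median in the control but higher in the library labelled knockout (1.54 and 1.27, and 0.727 and 0.262). These are descriptions of cells that share a library and a depth.

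Tumor monocytes without Chil3 were like the members in the interferon-stimulated list but not in every gene. In C1q-high macrophages that list differed less between the libraries. Cells that met the rule except that they held no Chil3, and that held Fcer1g and Csf1r and no Siglech, numbered 53 and 157. Their interferon-stimulated list had a median log2 ratio of 1.39, beside 1.34 in the members, and held 1.24% and 3.01% of UMIs. C1q-high macrophages, which numbered 504 and 748, had a median of 0.76, with 0.636% and 1.22% of UMIs, and B cells had a median of 0.56. Isg15 stood at 86.6 and 1099 CPM in the Chil3-negative cells and at 71.7 and 375 CPM in the macrophages. Class II had a median of 0.43 in the Chil3-negative cells and -0.84 in the macrophages, beside 0.33 in the members. Hmox1, lower in the members, stood at 145 and 415 CPM in the Chil3-negative cells and at 675 and 811 CPM in the macrophages. The Chil3-negative control cells also held melanoma transcripts, with Dct at 637 and 15.5 CPM and Mlana at 258 and 0.970 CPM. In this set 11 of 13 measured S phase and mitosis genes were at least 2-fold lower, where 4.46% of all its measured genes were. The part of such transcripts in the other values of this set was not tested. With 1 library per group the differences between these cell sets were not tested, so no value is called particular to the members.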

How the data were processed

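Droplet single-cell RNA was measured in 2 libraries of tumor CD45+ cells, 1 per group. The authors deposited raw UMI counts per gene and barcode, made with Cell Ranger 3.0.1 on mm10, per the submitters' processing notes. The lowest barcode held 500 UMIs in each library. Here, a kept barcode had 200 or more genes and a mitochondrial share of at most 10%, the rule chose the members, and UMIs were summed over members per library and divided by the sum (CPM). Ratios are the log2 of CPM plus 5, library labelled knockout over control, and called means at least 2-fold. No doublets were removed in the values given. Removing the barcodes with the highest Scrublet scores (scanpy 1.11.5), 0.8% per 1000 kept barcodes, was an alternative.

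Intervals are exact Poisson (CPM), Clopper-Pearson (shares), conditional binomial (ratios) and log-normal (ratio of shares), with scipy 1.17.1 and Python 3.11.15. UMIs remove amplification copies, and intervals and limits cover counting error only. Thinning drew 2000 UMIs per cell without replacement. Of 357 list genes, 353 were found, 6 of them by Ensembl identifier under another symbol. Coordinates are from the GENCODE annotation of GRCm38, the same assembly as mm10, and promoters from RefSeq. Scripts were tested on simulated counts.

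Members and gene lists were chosen with earlier results of these data known. Genes could be named if they were on a list, were among the 15 highest or 15 lowest ratios with at least 100 UMIs (technical genes and genes with over 25% of UMIs in 1 cell of the higher library left out), the 15 leading member genes or the 15 most variable genes. Alternatives changed the mitochondrial limit, doublets, rule, cells by Xist or Y-linked UMIs, cell weights, pseudocount, count filter, scaling, free RNA and thinning. Leaving out members with another lineage's markers, and leaving out a gene's highest cell, were added after seeing the data. Some genes of the lists and of the lowest ratios are not reported here.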

Additional observations from a re-analysis of the deposited data

Results flagged for a closer look

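In 3 lists the median log2 ratio, library labelled knockout over control, pointed in opposite directions in members with Xist and members with Y-linked UMIs. The nonclassical monocyte list stood at -0.58 with Xist and 0.69 with Y-linked UMIs. The dendritic cell list stood at 0.32 and -0.93, and the MHC class II list at 0.54 and -0.34. The difference between the kinds of cell was not tested, and the members with Y-linked UMIs of the library labelled knockout numbered 40.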

How the results depend on the processing

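No paired analysis was possible because each group has 1 library. Usp18 kept its direction under its 14 alternatives, from 1.74 to 2.49, and the interferon-stimulated median stayed between 1.11 and 1.75, the latter with the rule applied to thinned cells. The log2 ratio of member shares was 1.56, and became 3.69 with a limit of 10 UMIs for Chil3 and Ly6c2 (13 and 136 members), 2.34 with the rule after thinning (38 and 189 members) and 1.05 in cells with Xist. In that order the count of genes at least 2-fold higher (237) became 745, 493 and 365, and that of genes at least 2-fold lower (51) became 298, 195 and 125. A minimum of 100 UMIs per gene gave 146 higher and 15 lower genes. The lower count was 248 with Y-linked UMIs, 167 with a pseudocount of 1 CPM and 77 with a minimum of 1 UMI. The MHC class II median (0.33) became 2.396 with the limit of 10 UMIs, 1.90 with the rule after thinning, 0.58 with Xist, -0.25 with Y-linked UMIs, 0.42 after subtracting free RNA and 0.17 without members holding another lineage's markers. The count minimum is applied again within each subset here, which is why these medians and counts differ from those given within each kind of cell in the results. The share of members with at least 3 interferon-stimulated UMIs differed by 0 points at 2000 UMIs and by 2.5 points at 1000. Hmox1 turned to 0.48 with the limit of 10 UMIs, Runx2 to 0.36 with the rule after thinning and Bcl11a to 0.31 with Xist. The causes were not tested. Over the 14 alternatives, list medians changed sign 26 times, in 10 of 18 lists. With 1 pool per group, depth limits counting error alone and the spread between mice is unknown.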

Other observations

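None of 18 measured genes of glycolysis and the response to low oxygen passed 2-fold in the monocytes. Among all measured genes 2.83% were at least 2-fold higher and 0.608% lower. Of the 18 genes 17 lay above 0, where 3925 of all 8389 genes did, with a median log2 ratio of 0.42. Ldha, lactate dehydrogenase, stood at 442 and 700 CPM and the glucose transporter gene Slc2a1 at 99.5 and 165 CPM. In members with Y-linked UMIs 7 of 18 lay above 0 and the median was -0.04.

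Transcription factor genes of the monocyte lineage showed no shared direction (median 0.02). Past 2-fold were 0 of 16, beside 2.83% higher and 0.608% lower of all measured genes. Spi1, which encodes PU.1, stood at 541 and 567 CPM, Cebpb at 1422 and 1656 CPM and Klf4 at 257 and 162 CPM. Genes of S phase and mitosis were low and had a median of 0.22, which was -0.65 without the members that held another lineage's markers. Genes that cell dissociation induces had a median of 0.20, with Fos at 1551 and 1026 CPM and Hspa1a at 91.9 and 198 CPM.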
